A study of Mus musculus with 9 samples.

Results

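This account describes 10 genes listed together as growth brakes, in NIH-3T3 cells given a mimic or an inhibitor of miR-378-3p. They are Cdkn1b, Cdkn1c, Rbl2, Ccng2, Ypel3, Ypel5, Foxo1, Foxo3, Pik3ip1 and Sesn3. The name of the list does not mean that each of them, Ypel5 for one, is known to slow division. The genes were taken by name from a list on cell cycle exit and FoxO signalling. They were chosen by their log2 values in the control, mimic and inhibitor arrays described here, so their levels and differences are a description and support no claim about the list. Each of the 10 had a probe set annotated to that gene alone, and all 10 were among the 11963 genes tested of 19938 named on the array. The values are log2 RMA values, a log2 measure of hybridisation signal normalized over arrays, so a difference of 1 is a doubling.

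NIH-3T3 is an established line of mouse fibroblasts. Cells were transfected with 25 nM of a commercial RNA complexed to the lipid reagent DharmaFECT 1, and total RNA was profiled after 48 hours. The 3 groups, of 3 arrays each, received a RISC-free siRNA (the control, made to stay out of the silencing complex), a mmu-miR-378-3p mimic (a synthetic RNA that acts as this microRNA) or a mmu-miR-378-3p inhibitor (an RNA that blocks it). All cells of the 3 groups were thus transfected, no group received a mimic or inhibitor of another sequence, and a response to the microRNA cannot be told apart from a response to the chemistry of each RNA.

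Fibroblasts leave the cell cycle for a reversible resting state, quiescence, when growth factors run low. Growth factor signals pass through PI3 kinase to the kinase AKT, which phosphorylates FoxO transcription factors and keeps them out of the nucleus; when the signal fades, FoxO proteins enter the nucleus and switch on genes that slow division. Inhibitors of cyclin-dependent kinases and the pocket protein p130 (Rbl2), which with the DREAM complex silences cell cycle genes, hold cells in that state.

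The promoters of the members that differed from the control are shown first, because several of these genes are known as targets of FoxO factors. RefSeq windows (build GRCm38.p6, from 250 bases before to 50 after a transcript start) were at hand for 9 of the 10 genes, in 10 windows, with none for Cdkn1c. The 100 bases before the start are printed 5′ to 3′ on the strand of the gene, which is the plus strand for each of the 5, with any letters of the motifs searched in capitals.
Ccng2, chr5:93267473-93267572: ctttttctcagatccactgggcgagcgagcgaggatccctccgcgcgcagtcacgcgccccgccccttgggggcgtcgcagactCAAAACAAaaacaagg
Ypel3, chr7:126776863-126776962: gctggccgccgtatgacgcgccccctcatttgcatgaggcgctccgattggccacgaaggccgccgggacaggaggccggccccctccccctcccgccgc
Ypel5, chr17:72836528-72836627: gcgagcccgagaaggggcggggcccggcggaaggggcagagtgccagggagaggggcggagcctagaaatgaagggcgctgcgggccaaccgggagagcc
Cdkn1b, chr6:134920301-134920400: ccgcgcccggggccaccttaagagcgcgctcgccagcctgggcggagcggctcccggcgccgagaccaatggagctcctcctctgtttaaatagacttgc
Pik3ip1, chr11:3330631-3330730: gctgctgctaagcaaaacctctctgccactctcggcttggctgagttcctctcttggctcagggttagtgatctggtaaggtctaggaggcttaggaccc

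The search took 5 sets of letters on both strands, and a match is a description of the sequence and not a bound site. The insulin response sequence CAAAACAA, a form of FoxO element, stood in 1 of the 10 member windows, that of Ccng2, and in 2.51% of all 32851 windows. The forkhead site GTAAACA stood in 1 member window, that of Ypel3, against 3.65% of all windows. In Ypel3 it lay just after the start, within the stretch chr7:126776976-126777005 that reads gctggtctcggtGTAAACAagtcgaggcgg. The cell cycle homology region TTTGAA, a DREAM element, was in the window of Rbl2 alone among members (17.9% of all windows), the E2F core TTCCCGC in that of Foxo3 alone (4.6%) and the E-box CACGTG in the other window of Ypel5 alone (7.15%). No motif was found in more than 1 member window.

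Fibroblast identity was clear on all arrays, with Col1a1, Col1a2, Vim, Fn1 and Sparc above the 99th percentile of gene means. The other fibroblast markers, Thy1, Pdgfrb and S100a4, lay at percentiles of 86.8, 94.6 and 98.35. Thy1 read 6.76 in the controls and 7.14 with the mimic (means; limma, adjusted p = 0.00823). Of 19 markers of macrophages, epithelium, endothelium and muscle, 7 passed the level filter (a mean of 3.86 over the 9 arrays). These were Cd68, Csf1r, Krt8, Krt18, Pecam1, Myod1 and Actn2, from the 45th (Pecam1) to the 54th percentile (Myod1). Others, among them Ptprc, Epcam and Cdh5, lay below the filter. The summed log2 level of all 19 ran from 72.1 to 72.5 in the controls, 71.9 to 72.6 with the mimic and 71.2 to 72.3 with the inhibitor. Mimic 3 and inhibitor 1 lay at opposite ends of the first principal component (scores of -20.5 and 20.9, against -4.38 to -2.78 for the controls). Across all genes tested, limma called 425 with the mimic (3.55%, 132 higher and 293 lower) and 1780 with the inhibitor (14.9%, 1330 higher and 450 lower) at an adjusted p under 0.05. After quantile normalization the splits were 335 higher to 439 lower and 1269 higher to 1022 lower.

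Of the 10 listed genes, 5 passed that threshold with the inhibitor, where 14.9% of all genes did, and 2 with the mimic, where 3.55% did. With the inhibitor, Ypel3, Cdkn1b, Ccng2 and Pik3ip1 fell and Ypel5 rose, where 3.76% of all genes fell and 11.1% rose. With the mimic, Ccng2 fell and Ypel5 rose, where 2.45% of all genes fell and 1.1% rose. The other 5, among them both FoxO genes, passed the threshold in neither comparison. The median log2 difference of the 10 was 0.01 with the mimic and -0.06 with the inhibitor, beside -0.01 and 0.01 over all genes tested. Since these contrasts were known when the list was drawn up, nothing is read from its share of calls. The 2 comparisons share the control arrays. RNA of whole cultures was measured, in which fewer cells expressing a gene and less RNA per cell cannot be told apart.

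**Figure D1:**
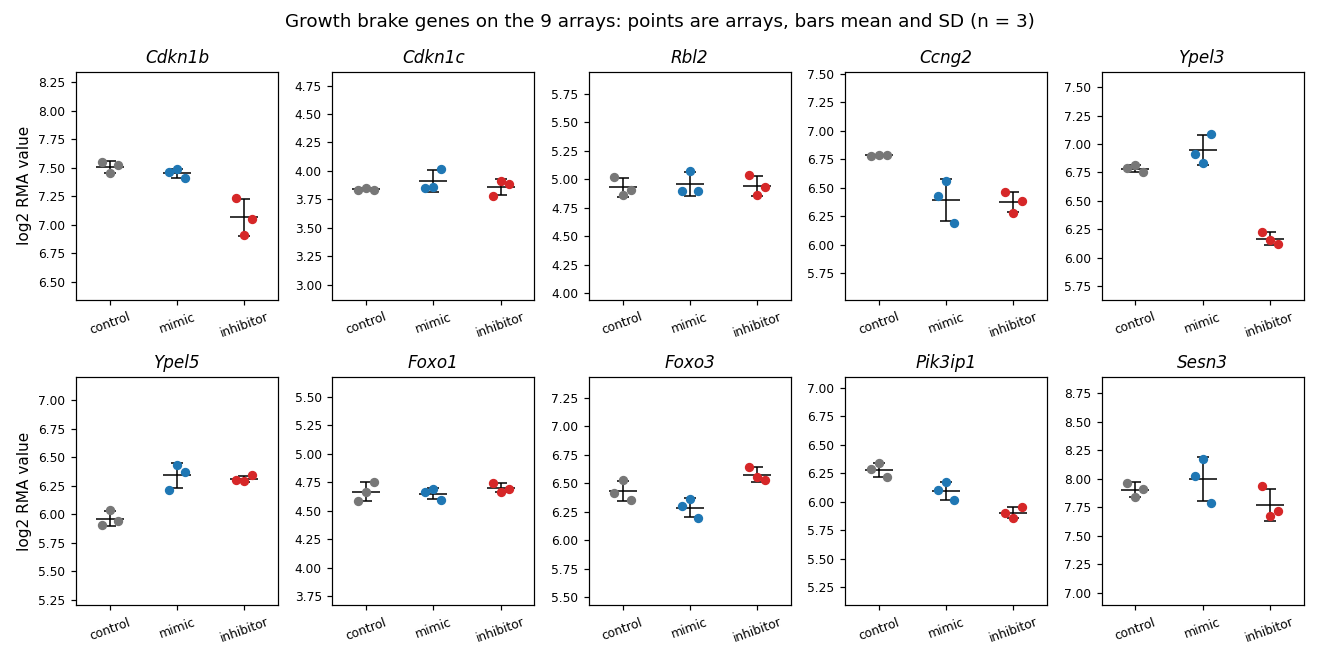
Log2 RMA values (vertical axis, each panel spanning 2 units) of the 10 genes on the 9 arrays, with points for arrays and bars for mean and SD (n = 3) of control, mimic and inhibitor. The inhibitor arrays of Ypel3, Cdkn1b and Pik3ip1 lie below all others, mimic and inhibitor arrays of Ccng2 lie below and of Ypel5 above the controls, and the groups of Cdkn1c, Rbl2, Foxo1 and Sesn3 overlap.

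Cdkn1b encodes p27, the inhibitor of cyclin E and CDK2 that accumulates in resting cells. It read 7.55, 7.45 and 7.52 on control arrays 1, 2 and 3, 7.46, 7.49 and 7.41 with the mimic, and 7.24, 6.91 and 7.05 with the inhibitor. The inhibitor arrays were the lowest of the 9 and did not overlap the others, while mimic and control overlapped. The difference from the control was -0.44 ± 0.08 with the inhibitor (SE, limma), a level 0.736 times that of the control, and -0.05 ± 0.08 with the mimic, with a 95% interval from -0.22 to 0.11.

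A less bright probe set annotated to Cdkn1b, not used in the fit, offers a second reading of the same transcript. It read 4.99, 4.88 and 5.13 in the controls and 4.78, 4.44 and 4.44 with the inhibitor, a difference of -0.45, again without overlap. With the mimic it read 4.96, 4.88 and 5.42, where mimic 3 stood highest of all 9 arrays. Both probe sets thus put the inhibitor group lowest and by nearly the same amount, and neither separated the mimic from the control.

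Cdkn1c encodes p57, the imprinted relative of p27 in the same family of CDK inhibitors. It lay just above the level filter, with control arrays at 3.84 ± 0.01, mimic arrays at 3.91 ± 0.10 and inhibitor arrays at 3.86 ± 0.07 (mean ± SD, n = 3). The groups overlapped, and the 95% intervals of its differences ran from -0.06 to 0.20 with the mimic and from -0.11 to 0.15 with the inhibitor. At a signal this close to the filter a change in the transcript may go unmeasured.

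Rbl2 encodes p130, the pocket protein most abundant in resting cells. It read 5.03, 4.86 and 4.90 in the controls, 4.90, 5.08 and 4.89 with the mimic and 5.03, 4.86 and 4.93 with the inhibitor. The 3 groups covered nearly the same range. Differences from the control were 0.03 ± 0.07 and 0.01 ± 0.07 (SE), with 95% intervals from -0.13 to 0.18 with the mimic and from -0.14 to 0.17 with the inhibitor.

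Ccng2 encodes cyclin G2, an unconventional cyclin that rises as cells stop dividing and slows the cycle. The control arrays read 6.77, 6.78 and 6.79, the mimic arrays 6.43, 6.55 and 6.19 and the inhibitor arrays 6.46, 6.28 and 6.38. Every mimic and inhibitor array lay below every control, and the mimic and inhibitor arrays overlapped. The gene fell by 0.39 ± 0.08 (SE, limma) with the mimic and by 0.41 ± 0.08 with the inhibitor, to 0.762 and 0.754 times the control level. Mimic 3 was lowest, and without it the difference with the mimic was -0.29.

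The mimic call of Ccng2 was the least secure of the 7. It held in 4 of the 9 fits with a single array left out, and ended without control 1, control 2, control 3, mimic 1 or inhibitor 3. It also ended without the level filter, after median centring, in a fit of the 6 arrays compared and with the replicate number as a block, while its direction held in each. The inhibitor call of Ccng2 held in all 9 fits.

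Ypel3 and Ypel5 belong to the yippee-like family of small zinc-binding proteins, of which Ypel3 is known to slow growth when overexpressed. Ypel3 read 6.79, 6.81 and 6.75 in the controls, 6.92, 6.83 and 7.09 with the mimic and 6.23, 6.16 and 6.12 with the inhibitor. The 3 groups did not overlap in any pair, with the inhibitor lowest and the mimic highest, though mimic 2 stood only slightly above the highest control. The fall with the inhibitor was 0.62 ± 0.07 (SE, limma), the largest of the 10 genes, to 0.653 times the control level. The difference with the mimic, 0.16 ± 0.07, did not pass the threshold, and without mimic 3 it was 0.09.

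Ypel5 moved in the same direction in both groups. It read 5.91, 6.03 and 5.94 in the controls, 6.22, 6.43 and 6.37 with the mimic and 6.30, 6.29 and 6.34 with the inhibitor. All 6 mimic and inhibitor arrays lay above the controls and overlapped each other. It rose by 0.38 ± 0.06 with the mimic and by 0.35 ± 0.06 with the inhibitor (SE, limma), to 1.3 and 1.27 times the control level. Its mimic call ended without control 1 and without control 3.

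The FoxO factors themselves differed less. Foxo1 read between 4.59 and 4.75 on all 9 arrays, with means of 4.67 (control), 4.65 (mimic) and 4.70 (inhibitor). Foxo3, the other FoxO factor, read 6.41, 6.53 and 6.36 in the controls, 6.31, 6.36 and 6.20 with the mimic and 6.65, 6.56 and 6.53 with the inhibitor. Its order was mimic, control, inhibitor, and each neighbouring pair overlapped. The differences from the control were -0.15 ± 0.06 with the mimic and 0.14 ± 0.06 with the inhibitor (SE), neither past the threshold. Quantile normalization took the inhibitor value to 0.04, and the mimic value was -0.10 without control 2. FoxO proteins are controlled mainly by phosphorylation and location, which arrays do not measure.

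Pik3ip1 encodes a membrane protein that binds PI3 kinase and lowers its activity upstream of AKT and FoxO. It read 6.29, 6.34 and 6.21 in the controls, 6.10, 6.17 and 6.01 with the mimic and 5.90, 5.85 and 5.95 with the inhibitor. No pair of groups overlapped, and the order was inhibitor, mimic, control. The fall with the inhibitor was 0.38 ± 0.06 (SE, limma), to 0.769 times the control level, and the difference with the mimic, -0.19 ± 0.06, did not pass the threshold.

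Sesn3 encodes sestrin 3, a stress-induced protein and known FoxO target that restrains the growth kinase mTORC1. It read 7.96, 7.84 and 7.91 in the controls, 8.03, 8.18 and 7.79 with the mimic and 7.93, 7.67 and 7.71 with the inhibitor. Mimic arrays 1 and 2 lay above the controls and mimic 3 below them, while inhibitor 1 lay among the controls and the other inhibitor arrays below. Its differences were 0.09 ± 0.10 with the mimic and -0.13 ± 0.10 with the inhibitor (SE), the latter -0.21 without inhibitor 1 and -0.08 without inhibitor 2. With the inhibitor it passed the threshold after quantile normalization (-0.22) and with mimic 3 and inhibitor 1 both left out (-0.21), a setting chosen after seeing the data, and in no other fit.

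**Figure D2:**
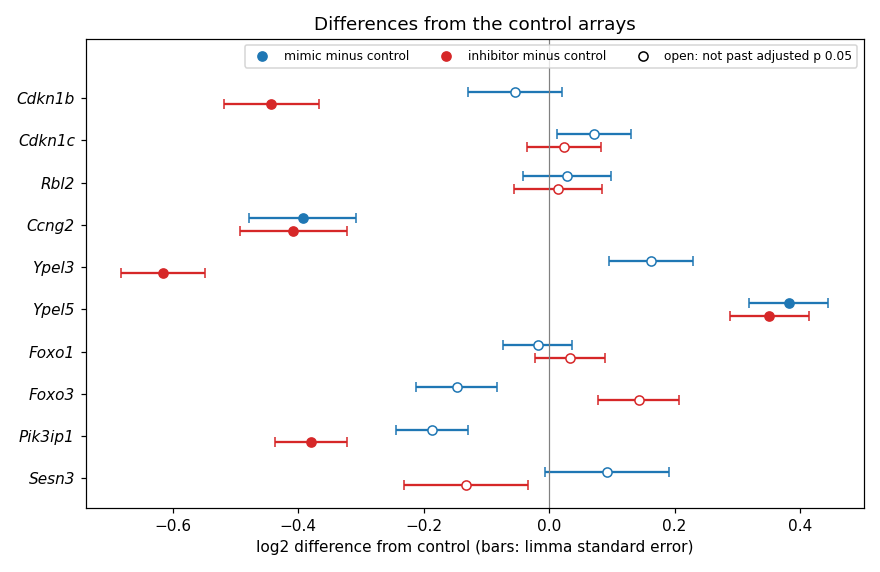
Log2 difference from the control (horizontal axis, with limma's SE as bars) of the 10 genes with the mimic (blue) and the inhibitor (red); filled points passed an adjusted p of 0.05 in the fit across all genes. Filled points are Ccng2 and Ypel5 in both colours and Cdkn1b, Ypel3 and Pik3ip1 in red.

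The inhibitor calls of Ypel3, Cdkn1b, Ccng2, Pik3ip1 and Ypel5 held in each of the 9 fits with 1 array left out and in each of the 8 other planned settings. These refits use the arrays by which the genes were chosen. They describe how far a call depends on an array or a setting and are no independent support for it. Arrays of the groups did not overlap for 4 of the 10 genes with the mimic and 5 with the inhibitor, beside 21.3% and 37.7% of all genes tested. The genes thus fell into a few patterns. Cdkn1b, Ypel3 and Pik3ip1 were lowest with the inhibitor, Ccng2 was low and Ypel5 high with either RNA, Foxo3 differed between mimic and inhibitor alone, and Cdkn1c, Rbl2, Foxo1 and Sesn3 had overlapping groups.

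The mimic was also set directly against the inhibitor, a difference to which the control arrays add no level. In that comparison 4 of the 10 genes passed the threshold, where 26.8% of all genes tested did (6.91% higher and 19.9% lower with the mimic). Ypel3, Cdkn1b and Pik3ip1 were higher with the mimic, by 0.78 ± 0.07, 0.39 ± 0.08 and 0.19 ± 0.06, and Foxo3 was lower by 0.29 ± 0.06 (log2, SE, limma). The groups did not overlap for these 4, beside 38.6% of all genes. For Ccng2 and Ypel5 the mimic minus inhibitor difference was 0.01 and 0.03, with 95% intervals from -0.17 to 0.20 and from -0.11 to 0.17. The call of Pik3ip1 ended without mimic 1, mimic 2, inhibitor 1 or inhibitor 2, as it did after median centring, in the fit of 6 arrays and with an intensity trend in the moderation, and after quantile normalization its difference was 0.30. The calls of the other 3 held in all 9 such fits with an array omitted. The difference of Foxo3 was -0.16 after quantile normalization, where its call held. Sesn3 did not pass, with a difference of 0.22 and a 95% interval from 0.006 to 0.44. It passed after quantile normalization (0.33), without mimic 3 (0.33) and without both mimic 3 and inhibitor 1 (0.41).

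Genes whose values ran most closely with a member were named by Pearson r over the 9 arrays, for members whose group means spanned at least 0.3; arrays share their group differences, so r here describes the pattern alone. Ypel3 ran with Itm2b (r = 0.991), Camk1 (0.983) and Npdc1 (0.974). Cdkn1b ran with Trim30a (0.990), Sh3pxd2a (0.973) and Tmem218 (0.969), and Pik3ip1 with Ifi30 (0.969), Mmab (0.961) and Prmt2 (0.958). For Ccng2 the closest were Osr1 (0.978), Zkscan7 (0.973) and Pltp (0.969), and for Ypel5 Fhl2 (0.923), Pusl1 (0.919) and the nuclear receptor gene Nr4a1 (0.916).

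Relatives of the members were read next, since the proteins of a family can stand in for each other. Among the yippee-like genes, Ypel4 fell with the inhibitor, from 4.96, 5.06 and 5.03 to 4.73, 4.71 and 4.69, a difference of -0.31 ± 0.06 (SE; limma, adjusted p = 0.00666). Ypel1 and Ypel2 did not pass the threshold in either comparison. They lay at percentiles of 47.4 and 46.3, among the markers of other cell types that passed the filter, where a change may go unmeasured. Of the family's 5 genes, then, Ypel3 and Ypel4 fell with the inhibitor and Ypel5 rose.

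The gene of cyclin G1, the relative of cyclin G2, moved opposite to Ccng2 with the inhibitor. Ccng1 read 8.93, 8.90 and 9.01 in the controls and 9.91, 9.75 and 9.78 with the inhibitor, a rise of 0.87 ± 0.07 (SE; limma, adjusted p = 7.36e-05), and with the mimic its difference was -0.06. Among the sestrins, Sesn1 fell with the inhibitor, from 7.22, 7.08 and 7.20 to 6.99, 6.53 and 6.79 (-0.39 ± 0.11, SE; limma, adjusted p = 0.0341), and Sesn2 rose by 0.27 ± 0.06 (SE; limma, adjusted p = 0.0142). When single arrays were left out, the call of Sesn1 held in 3 of 9 fits and that of Sesn2 in 6.

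Among CDK inhibitors of the INK4 family, Cdkn2d alone passed the threshold. Cdkn2d, which encodes p19, fell by 0.17 ± 0.05 with the inhibitor (SE; limma, adjusted p = 0.0465), a call that held in 3 of the 9 fits. Cdkn2a, Cdkn2b and Cdkn2c did not pass the threshold in either comparison, and Cdkn1a was not analysed here. Control means of Cdkn2a and Cdkn2b were only 4.26 and 4.15. Cd68, Krt8 and Myod1, markers of other cell types, read 4.25, 4.15 and 4.34 there. These arrays thus do not show that Cdkn2a and Cdkn2b were expressed, and their lack of a difference is not read as a result.

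**Figure D3:**
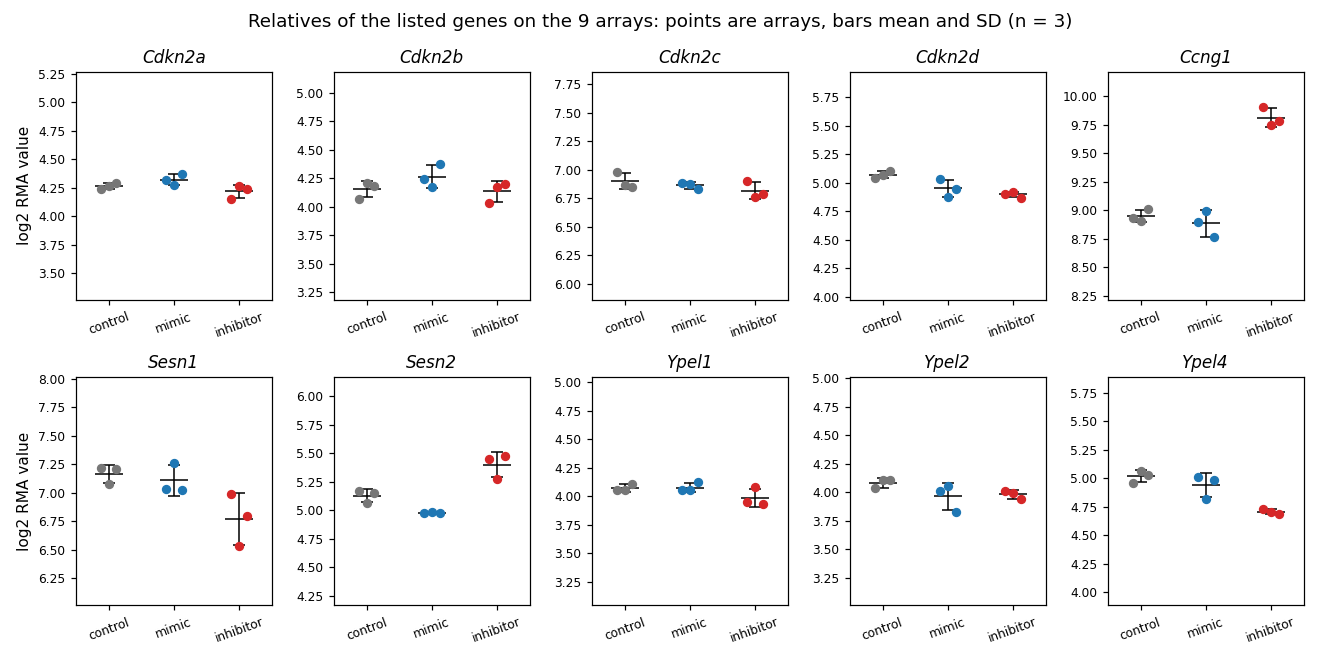
Log2 RMA values (vertical axis, each panel spanning 2 units) of the other CDK inhibitors, cyclin G1, the other sestrins and the other yippee-like genes on the 9 arrays, with points for arrays and bars for mean and SD (n = 3). The inhibitor arrays of Ccng1 and Sesn2 lie above the controls and those of Ypel4, Sesn1 and Cdkn2d below, while the groups of Ypel1 overlap.

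The wider pathway was read from lists of function that hold 97 genes besides the 10 members, of which 88 were tested. With the mimic 10 of the 88 passed the threshold (5 higher and 5 lower), a share of 11.4% beside 3.55% of all genes, and with the inhibitor 28 did (19 higher and 9 lower), a share of 31.8% beside 14.9%. The lists were drawn up with earlier results of these data known, so nothing is read from these shares or those of the single lists below. After quantile normalization the inhibitor split was 20 higher to 16 lower. The median log2 difference was -0.03 with the mimic and 0.02 with the inhibitor, beside -0.01 and 0.01 over all genes. Without control 1, control 2, control 3 or mimic 1 the mimic count was 4, 6, 4 or 4, and without control 1, inhibitor 1 or inhibitor 3 the inhibitor count was 14, 17 or 18.

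FoxO factors and the kinases above them are the part of the pathway that sets FoxO activity. Of 17 tested besides the members, 1 passed with the mimic (5.88%, beside 3.55% of all genes) and 6 with the inhibitor (35.3%, beside 14.9%). Akt1, the kinase that inactivates FoxO proteins, fell with the mimic, from 8.56, 8.59 and 8.53 to 8.10, 8.11 and 7.91 (-0.52 ± 0.06, SE; limma, adjusted p = 0.00203), and its difference with the inhibitor was 0.09. With the inhibitor, the PI3 kinase subunit gene Pik3cb rose by 0.77 ± 0.08 (SE; limma, adjusted p = 0.000298), Usp7, which encodes a deubiquitinase that acts on FoxO4 and MDM2, by 0.54, the AKT-like kinase gene Sgk1 by 0.52 and the deacetylase gene Sirt1 by 0.32, a call held in 5 of the 9 fits. Irs2 rose and Foxo4, another FoxO factor, fell by 0.21. The median of the 17 was 0.18 with the inhibitor and -0.0038 with the mimic, beside 0.01 and -0.01 over all genes. The arrays differed in scale, with upper quartiles of all probe sets of 5.64 to 5.65 (control), 5.55 to 5.66 (mimic) and 5.67 to 5.76 (inhibitor). After quantile normalization the inhibitor differences of Pik3cb, Usp7, Sgk1 and Sirt1 were 0.68, 0.45, 0.45 and 0.29. The part of array scale in the median of the 17 was not tested.

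Reported FoxO target genes split in direction. Of 24 tested besides the members, 1 rose and 1 fell with the mimic (8.33% called, beside 3.55% of all genes). With the inhibitor 3 rose and 2 fell (20.8% called, beside 14.9% of all genes, 11.1% higher and 3.76% lower). The medians were 0.02 with the mimic and -0.03 with the inhibitor. Klf2, a zinc finger factor of resting cells, rose with the mimic from 5.62, 5.88 and 5.67 to 6.22, 6.30 and 6.26 (0.53 ± 0.07, SE; limma, adjusted p = 0.00364), and Txnip, a brake on glucose uptake, fell by 0.30, a call held in 3 of the 9 fits. With the inhibitor the growth arrest gene Gadd45a rose by 0.72 and the repressor gene Bcl6 by 0.44, and the cell death gene Bcl2l11 (Bim) fell by 0.34, as did Sesn1 above (limma, adjusted p of at most 0.0341). Irs2, an adaptor of insulin signalling that is on both lists, was the other riser, by 0.23. Gadd45a is also a p53 target, and a response of p53 was not tested here.

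Pocket proteins and DREAM components, the partners of Rbl2, numbered 11 tested. The threshold was passed by 1 with the mimic (9.09%, beside 3.55% of all genes) and by 4 with the inhibitor (36.4%, beside 14.9%). With the mimic E2f5, an E2F factor that binds p130, fell by 0.21 (limma, adjusted p = 0.035), a call held in 2 of the 9 fits. Its signal was faint, at a percentile of 51, among the markers of other cell types that passed the filter. With the inhibitor E2f4, the main E2F partner of p130, rose from 6.46 ± 0.18 to 6.97 ± 0.06 (mean ± SD, n = 3), without overlap and by 0.51 ± 0.09 (SE; limma, adjusted p = 0.00368). Rbl1 (p107) rose by 0.33 and Dyrk1a, the kinase that starts DREAM assembly, by 0.30, each held in 4 of the 9 fits, and the DREAM subunit gene Lin37 fell by 0.21, held in 6.

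Genes of p27 turnover bear on the protein of Cdkn1b. Of 11 tested, 1 fell with the mimic (9.09%, beside 2.45% of all genes) and 4 rose with the inhibitor (36.4%, beside 11.1%). Skp2, the F-box protein that marks p27 for destruction, was the 1 that fell and was among the 4 that rose. It read 5.68, 5.78 and 5.84 in the controls, 5.09, 5.06 and 4.95 with the mimic and 6.18, 5.95 and 6.21 with the inhibitor, and no pair of groups overlapped. Its differences were -0.74 ± 0.08 with the mimic and 0.35 ± 0.08 with the inhibitor (SE; limma, adjusted p = 0.00133 and 0.0137). Ccne1, which encodes the cyclin E1 that p27 restrains, rose with the inhibitor by 0.65 and the kinase gene Uhmk1, whose product phosphorylates p27, by 0.49 (limma, adjusted p of at most 0.0044), and Ccne2 rose by 0.19. The call of Ccne2 held in 3 of the 9 fits and that of Skp2 with the inhibitor in 6. The level of p27 protein was not measured.

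Other growth arrest genes also split. Of 19 tested, 4 rose and 1 fell with the mimic (26.3% called, beside 3.55% of all genes). With the inhibitor 3 rose and 3 fell (31.6% called, beside 14.9%). Klf9 and Klf10, both growth-restraining zinc finger genes, rose in both groups, by 0.43 and 0.41 with the mimic and by 0.89 and 0.84 with the inhibitor. Mxd4, an antagonist of Myc, rose with the mimic by 0.35 and fell with the inhibitor by 0.39 (limma, adjusted p = 0.0275 and 0.00574). Its values were 7.57, 7.65 and 7.44 in the controls, 7.85, 7.82 and 8.02 with the mimic and 7.14, 7.25 and 7.12 with the inhibitor, the same order of groups as for Ypel3. Hes1, a factor that keeps resting cells from differentiating, rose with the mimic by 0.47, Btg2 rose with the inhibitor by 0.49, and Tob1, a relative of Btg2, fell with the mimic by 0.29. Gas6 and Tsc22d3 fell with the inhibitor, by 0.32 and 0.17. The mimic calls of Klf10 and Mxd4 held in 4 of the 9 fits and that of Klf9 in 6.

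**Figure D4:**
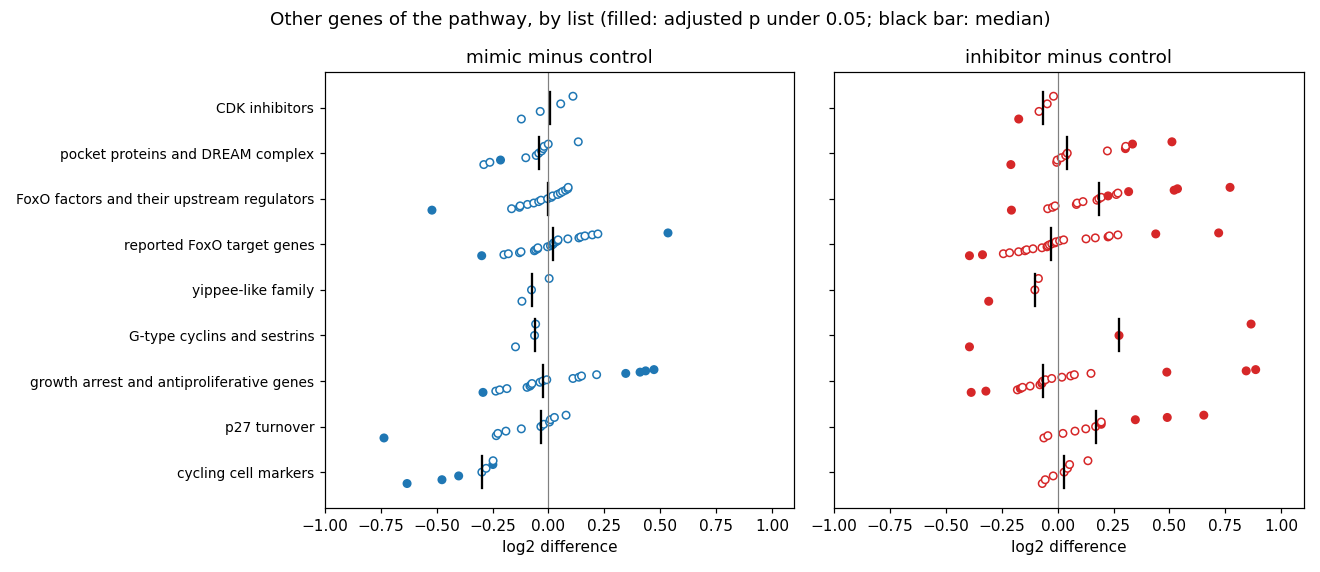
Log2 difference from the control (horizontal axis) of each tested gene of the wider lists, without the 10 members, with the mimic (left) and the inhibitor (right); filled points passed an adjusted p of 0.05 and black bars are list medians. Cycling cell markers lie below 0 with the mimic (median -0.30) and around 0 with the inhibitor (0.03), and FoxO regulators lie mostly above 0 with the inhibitor (0.18).

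Markers of cycling cells were set beside these values. Of 7 tested, 4 fell with the mimic (Mki67, Aurka, Ccna2 and Birc5, by 0.25 to 0.63), a share of 57.1% beside 2.45% of all genes. All 7 lay below the controls with the mimic without overlap (21.3% of all genes did not overlap), each with an unadjusted limma p under 0.05. None passed with the inhibitor (limma, 0 with an unadjusted p under 0.05 there). The call of Birc5 held in 6 of the 9 fits. Their median against the control mean was -0.39, -0.24 and -0.39 on mimic arrays 1, 2 and 3 and 0.04, 0.02 and -0.08 on inhibitor arrays 1, 2 and 3. The lower values of Cdkn1b, Ypel3 and Pik3ip1 with the inhibitor stood beside a median of these 7 markers near the control level. Other cell cycle genes, Ccne1, Ccne2, Skp2 and Rbl1, rose with the inhibitor, as given above, so the 7 markers do not show that cycling was unchanged. Ccng2 was lower and Ypel5 higher with either RNA. The part of cell cycle state in the members' values was not tested.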

How the data were processed

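RNA was isolated with a Qiagen miRNeasy kit and hybridised to Affymetrix arrays as biotin-labelled cDNA, per the labels' protocols. The values are log2 signals of probe sets, as the authors deposited them; Partek 6.5 and RMA are named in the submitters' processing notes, and the genome build was not given in the sources used here. Of 28853 probe sets, 21789 had 1 gene, 1621 several and 5443 none; the brightest stood for a gene, and genes with a mean under the 40th percentile were left out. All 9 arrays entered a single limma model (version 3.58.1, R 4.3.3, with empirical Bayes moderation), with Benjamini-Hochberg adjustment over 11963 genes and a threshold of 0.05, tested on simulated data. Precision is limited by the number of arrays. Nothing in the labels says that triplicates were separate cultures, and p-values then reflect the spread of these arrays, which may be technical.

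The members and gene lists were chosen with earlier results of these data known, and the promoter motifs with the sequences in view. Named were all members, up to 4 called genes of each list and comparison by size of the difference, and the 3 genes most like each member. Irs2, Foxo4, Tob1, Gas6, Tsc22d3 and the uncalled relatives were added after their values were seen. Alternatives were no level filter or one at the median, normalization by quantiles, centring on medians, fits of only 6 arrays, the replicate block, the mean of all probe sets, moderation with trend and leaving out each array. Figures were drawn with matplotlib 3.10.9.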

Additional observations from a re-analysis of the deposited data

How the results depend on the processing

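The number of genes called with the mimic moved from 425 to 774 after quantile normalization, 231 after median centring, 248 in a fit of the 6 arrays compared and 911 without mimic 3 and inhibitor 1, a setting chosen after seeing the data. Of the 10 members, 1 was called with the mimic without the level filter, after median centring, in the fit of 6 arrays and with the replicate block; of the wider pathway genes 6 were, after median centring and with the block. With 1 array left out, calls ran from 133 to 582 (mimic), 974 to 2790 (inhibitor) and 2310 to 3669 (mimic against inhibitor) over all genes, from 0 to 2, 5 to 5 and 3 to 5 over the members, and from 4 to 12, 14 to 36 and 33 to 38 over the wider genes. No sign was seen that replicate numbers paired the arrays. Deviations of same-numbered arrays from their group means correlated between -0.59 and 0.22, and mimic 2 with inhibitor 1 reached 0.63. With 3 arrays in a group, such correlations cannot exclude a batch shared by number. With the number as a block 289, 1575 and 3028 genes were called. Among members and the genes named by rule, the block ended the calls of Ccng2, E2f5, Txnip, Klf10, Mxd4 and Birc5 with the mimic and of Cdkn2d, Sesn1 and Ccne2 with the inhibitor. The causes of these moves were not tested. No called difference of a member changed sign in any setting. Faint probe sets such as that of Cdkn1c lie too near background for small changes to be seen.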
